A study of Mus musculus with 48 samples.

Results

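The ribosome-bound RNA of whole astrocytes of the dorsal hippocampus was described by abundance and by function, as 1 group on its own. The samples were all those labelled as full astrocytes and pulled down with an antibody to GFP, 24 of the 48 samples of the series. They came from 3 mice (animals C1, C2 and C3, here animals 1, 2 and 3), each sequenced as 8 technical replicates, which were summed to 1 library per animal, so n = 3 throughout. The mice carried Tg(Aldh1l1-eGFP/Rpl10a) JD130Htz, a transgene in which the promoter of the astrocyte gene Aldh1l1 drives a GFP-tagged ribosomal protein L10a. The age and sex of the mice, and any treatment, were not given in the sources used here, and RNA that was not bound to tagged ribosomes was not analysed here. A transcript can therefore be ranked within the pulldown, but its enrichment over the tissue cannot be given. The other 24 samples, from perisynaptic astrocyte processes of the same mice, were not used.

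Translating ribosome affinity purification (TRAP) captures tagged ribosomes together with the messenger RNAs on them, so that the RNA comes mainly from the cells that express the tag. Astrocytes clear glutamate and potassium released by neurons, take up glucose and store glycogen, supply lipids and antioxidants, and cover blood vessels with endfeet that carry water and potassium channels. In the hippocampus they are star-shaped cells rich in the intermediate filament protein GFAP, joined to each other by gap junctions.

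The 3 libraries held 20293538, 18707844 and 19503504 counts, and the 8 technical replicates within them ran from 2134697 to 2770446 counts. At this depth, a gene with 0 counts could have been present at up to 0.148 to 0.160 CPM (counts scaled to a library total of 1000000), the level of 3 counts. These limits cover counting error only, since amplified reads without molecular identifiers are not independent molecules. Of 47643 listed genes, 13546 were at 1 CPM or more in all 3 libraries, 8537 at 10 CPM or more, 1797 at 100 CPM or more and 68 at 1000 CPM or more. Protein-coding genes took 97.1% ± 0.0833 (SD, n = 3) of the counts. Across the 13546 genes, Spearman's rho between pairs of libraries was 0.947 to 0.958, given as a description over genes, which are not replicates. The libraries stood apart in several ways that touch the results below. The library of animal 2 had the highest share of a list of ependymal and choroid plexus markers (1.84%, against 0.239% in animal 1 and 0.470% in animal 3). The library of animal 3 had the lowest share of a list of secreted proteins (3.12%, against 5.24% in animal 1 and 6.57% in animal 2). Values are given below for animals 1, 2 and 3 in that order, with the mean ± SD over the 3 animals. No test was made, because a single group is described.

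The markers fixed for whole hippocampal astrocytes were all present in each library. Gfap, the intermediate filament protein of astrocytes (chr11:102887336-102900912, mm10), was at 9674, 6118 and 7751 CPM (7848 ± 1780). Slc1a3, the glutamate transporter GLAST (chr15:8634124-8710764), was at 3630, 3253 and 1994 CPM, and Slc1a2, the glutamate transporter GLT-1 (chr2:102658659-102790784), was at 1794, 2396 and 1293 CPM. Per length of exon, a scale described below, Slc1a3 was at 910 ± 255 and Slc1a2 at 365 ± 101. Aldh1l1 itself, a folate enzyme whose promoter drives the tag (chr6:90486427-90600203), was at 212, 204 and 253 CPM and ranked 792 by mean. Cst3, Cpe and Mt1, described next, completed the set. These genes had the highest means of all genes in these libraries, so their presence does not bear on the label. Of a wider list of 26 astrocyte markers, all 26 were at 10 CPM or more in each library and 23 at 100 CPM or more. The lowest of the list were Ranbp3l, with a mean of 31.9 CPM, Hapln1, with 52.7 CPM, and Agt, with 94.9 CPM.

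Counts were spread over many genes, with a few at a high level. The 10 most abundant genes of each library held 8.71%, 10.4% and 6.55% of its counts, the 100 most abundant held 24.1%, 25.9% and 20.1%, and the 1000 most abundant held 55.6%, 56.8% and 52.2%. It took 735, 680 and 891 genes to reach 50% of the counts. The library of animal 3 was thus the least concentrated and that of animal 2 the most. A different gene led each library: Cst3 in animal 1 with 1.42% of the counts, Ttr in animal 2 with 1.76% and Mt1 in animal 3 with 0.918%.

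**Figure D1:**
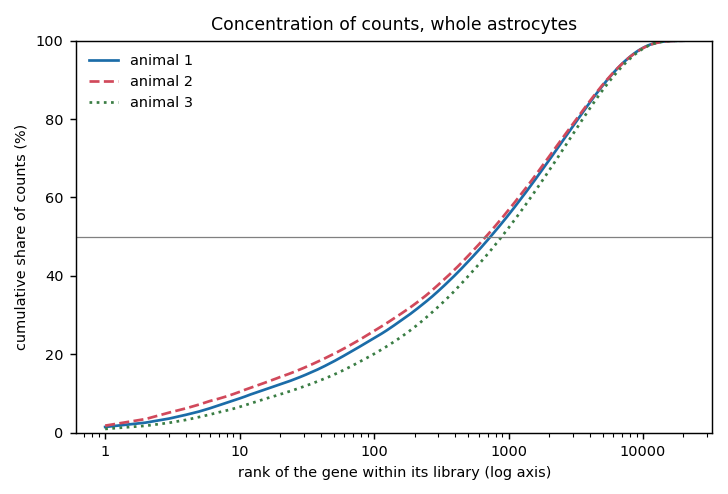
Cumulative share of counts (%, y axis) against the rank of the gene within its library (log x axis) for the 3 whole astrocyte libraries, with a grey line at 50%. The curve of animal 3 runs below the others and crosses 50% at 891 genes, against 735 and 680 genes in animals 1 and 2.

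The transcript with the highest mean was that of Cst3, which encodes the secreted protease inhibitor cystatin C (chr2:148871722-148875692), at 14224, 16877 and 8016 CPM (13039 ± 4548). Cpe, carboxypeptidase E, an enzyme that trims peptide precursors and is itself released (chr8:64592542-64693054), followed at 11077, 16522 and 7378 CPM (11659 ± 4600). In both, animal 2 was highest and animal 3 lowest. Mt1, a metallothionein that binds zinc and copper (chr8:94179082-94180327), came next at 10418, 8847 and 9183 CPM (9483 ± 828) and was much steadier between animals. Ttr, the thyroxine carrier transthyretin, best known as a product of the choroid plexus, reached 2172, 17610 and 4368 CPM (8050 ± 8352). Its place in the order rests on animal 2, without which its mean was 3270 CPM. Apoe, the main lipid carrier made by astrocytes, was at 8286, 10848 and 4593 CPM (7909 ± 3144), again with animal 2 highest and animal 3 lowest.

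Gfap was next by mean. It was followed by Tspan7, a membrane tetraspanin, at 6808, 9626 and 4584 CPM, and by Aldoc, the aldolase of brain glycolysis and a classic astrocyte marker, at 7571, 5941 and 7263 CPM. Prdx6, a peroxiredoxin that uses glutathione to reduce lipid peroxides, was at 8135, 5632 and 6299 CPM. Ndrg2, a cytoplasmic protein widely used as an astrocyte marker, was at 5462, 5859 and 5809 CPM (5710 ± 216), and Dbi, the acyl-CoA-binding protein, at 4970, 4678 and 4534 CPM (4727 ± 222). These last genes varied little, and their ranges did not overlap, the only neighbouring pair among the 30 most abundant genes for which that was so. In the other 28 of 29 neighbouring pairs the ranges over the 3 animals overlapped, and 4 of the 29 pairs kept their order in all 3 libraries, so the exact order within the 30 was not fixed beyond the spread between animals.

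The rest of the 30 included Clu (clusterin, a secreted chaperone, 4505 ± 1639 CPM), Gstm1 and Gstm5 (glutathione S-transferases, 4152 ± 650 and 3428 ± 444 CPM) and Ckb (brain creatine kinase, 3957 ± 731 CPM). They also included the membrane proteolipids Gpm6b (3007 ± 1085 CPM) and Gpm6a (2334 ± 767 CPM), the secreted matricellular protein gene Sparcl1 (2469 ± 764 CPM) and Csrp1 (a LIM domain protein, 2368 ± 351 CPM). Aldh1a1, which makes retinoic acid, was at 2230 ± 155 CPM, and Eif4g2, a translation initiation factor, at 2222 ± 232 CPM. Hopx, a homeodomain protein known from astrocytes and hippocampal stem cells, was at 2085 ± 309 CPM, and Scd2, a fatty acid desaturase, at 2014 ± 454 CPM. Ahcyl1, a protein that binds inositol trisphosphate receptors, was the last of the 30 by mean, at 2011 ± 278 CPM. Tprkb stood at 2332 ± 165 CPM, and its exons overlap those of Nat8f1 on the other strand (326 CPM). Lars2, the mitochondrial leucyl-tRNA synthetase, stood at 2033 ± 381 CPM. The next of 37 aminoacyl-tRNA synthetase genes, Dars, was at 154 CPM and the median of the others was 25.3 CPM. Whether all reads counted for Lars2 came from its own transcripts was not tested, so its value is uncertain. All 30 were protein-coding, all were above 1000 CPM in each library, and together they took 14.1% of the counts.

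**Figure D2:**
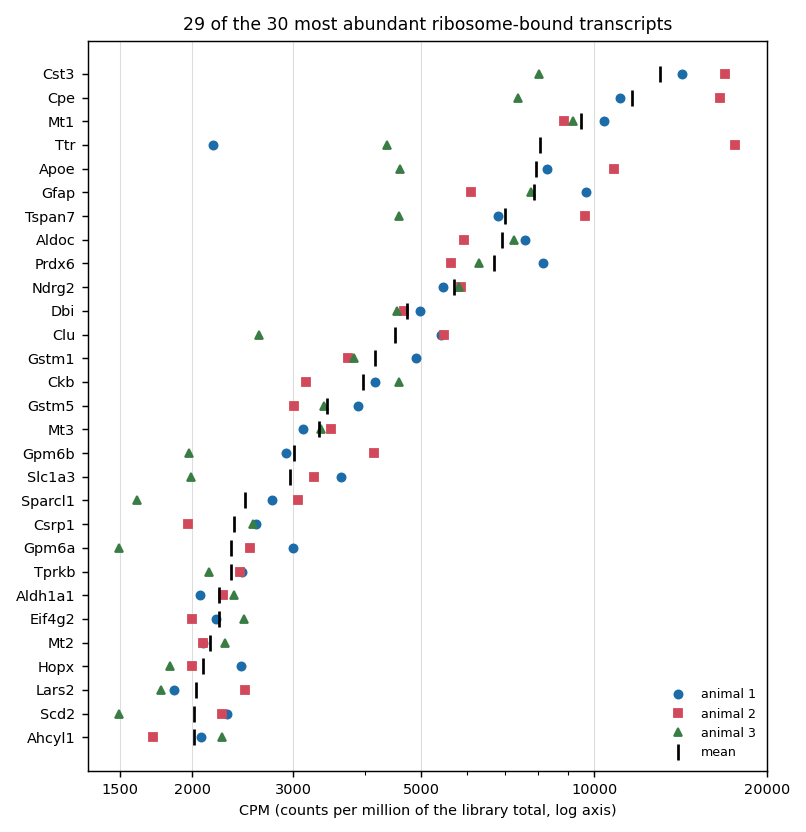
CPM (log x axis) of 29 of the 30 genes with the highest mean in the libraries of animals 1 (circles), 2 (squares) and 3 (triangles), with the mean as a black bar. Ttr spans the widest range, from 2172 to 17610 CPM, and secreted and membrane proteins such as Cst3, Cpe, Apoe, Tspan7, Clu and Sparcl1 lie lowest in animal 3, while Ndrg2, Dbi, Mt2 and Mt3 lie close together.

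The most equal pair of overlapping genes among the 100 most abundant was on opposite strands. It joined Gnas, the stimulatory G protein alpha subunit, at 1851, 1769 and 1894 CPM, and Gm20721, at 1842, 1755 and 1884 CPM. Reads of overlapping genes cannot be told apart here, because a strand setting was not given in the sources used. In all, 32 of the 100 most abundant genes shared exonic bases with another gene. The 5 long noncoding RNAs with the highest means were Pantr1 (775 ± 55.2 CPM), Gm15564 (686 ± 137 CPM), 2900052N01Rik (667 ± 163 CPM), 4933431E20Rik (541 ± 51.4 CPM) and Hopxos (516 ± 72.3 CPM). The last pair overlap Gstm5 and Hopx on the other strand and carry the same doubt.

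CPM counts reads, so a long transcript collects more of them, and levels were also compared per length (counts per kilobase of exon, scaled to 1000000 per library). On that scale the small secreted and metal-binding proteins stood out. Cst3 led with 26984 ± 8890 per-length units, followed by Mt1 with 20056 ± 1984, Ttr with 17603 ± 17885, Cpe with 11693 ± 4326, Apoe with 9682 ± 3645 and Mt2 with 9636 ± 694. Dbi (8755 ± 440), Mt3 (8194 ± 385), Gstm1 (7430 ± 1223), Gstm5 (7074 ± 1021) and Aldoc (5600 ± 813) came next per length. Cox8a, a small subunit of cytochrome c oxidase, and S100a1, a calcium-binding protein, ranked 12 and 15 per length against 70 and 80 by CPM. Gfap ranked 13 and Ndrg2 14. The long transcripts of the glutamate transporters moved the other way, Slc1a3 from rank 18 by CPM to 118 per length and Slc1a2 from 34 to 393. These ranks depend on the length used: with coding length in place of exonic length, 118 of 232 moved by more than 1.5-fold. Of 14 neighbouring pairs among the 15 highest per-length genes, all 14 overlapped in their ranges over the animals.

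Metallothioneins are small cysteine-rich proteins that buffer zinc and copper, and MT3 is the form known best from the brain. Their 3 genes were steady between animals, with CVs (the coefficient of variation, the SD over the mean) of 8.73% for Mt1, 5.62% for Mt3 and 5.10% for Mt2, where the 89 genes above 1000 CPM had a median of 15.7%. The list took 1.56%, 1.44% and 1.48% of the counts, and 3.79% ± 0.194 of the per-length total. Mt3 was at 3120, 3490 and 3344 CPM (3318 ± 187), and Mt2 at 2087, 2086 and 2276 CPM (2150 ± 110). Per length the order was Mt1, Mt2 and Mt3, with Mt2 above Mt3 by mean. Metallothionein genes are textbook targets of a zinc-sensing factor that binds metal response elements, so the promoter windows of the 3 genes are shown, from RefSeq on GRCm38.p6. Each window has 250 bases before and 50 bases after the annotated start on the plus strand, at chr8:94178839-94179138 for Mt1, chr8:94172368-94172667 for Mt2 and chr8:94152357-94152656 for Mt3. Capitals mark matches to the core of that element, TGCACNC or TGCGCNC, on either strand.
Mt1: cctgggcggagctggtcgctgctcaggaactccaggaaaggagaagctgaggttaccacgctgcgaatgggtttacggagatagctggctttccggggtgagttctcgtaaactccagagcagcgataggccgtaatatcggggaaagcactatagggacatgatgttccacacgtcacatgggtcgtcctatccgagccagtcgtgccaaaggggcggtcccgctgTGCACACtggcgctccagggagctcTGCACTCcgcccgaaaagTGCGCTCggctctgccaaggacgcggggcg
Mt2: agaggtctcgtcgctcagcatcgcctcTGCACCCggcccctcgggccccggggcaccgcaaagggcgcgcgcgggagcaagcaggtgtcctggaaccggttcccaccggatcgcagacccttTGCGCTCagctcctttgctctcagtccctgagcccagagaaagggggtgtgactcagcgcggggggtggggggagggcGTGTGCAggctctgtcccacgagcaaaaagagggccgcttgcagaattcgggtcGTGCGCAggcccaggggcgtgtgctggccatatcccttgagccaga
Mt3: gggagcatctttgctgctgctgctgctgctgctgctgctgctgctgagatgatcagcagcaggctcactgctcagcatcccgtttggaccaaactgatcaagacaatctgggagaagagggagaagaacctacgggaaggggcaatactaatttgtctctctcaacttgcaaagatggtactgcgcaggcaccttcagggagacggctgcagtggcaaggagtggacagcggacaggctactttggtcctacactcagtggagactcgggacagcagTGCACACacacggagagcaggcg

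The Mt1 window held 3 matches, the Mt2 window 4 and the Mt3 window 1, of which 1, 3 and 0 began before the annotated start. Among all 32851 RefSeq promoter windows of the same length, 25.7% held at least 1 match, 7.11% at least 2 and 1.97% at least 3. A match is a run of letters and not a measured binding site.

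Secreted proteins formed the largest of 33 function lists by mean share of counts and in animals 1 and 2, while in animal 3 the respiratory chain list took more (3.36% against 3.12%). The 33 secreted protein genes took 5.24%, 6.57% and 3.12% of the counts (4.98% ± 1.74), and Cst3 alone held 26.2% of that sum. All 33 were at 1 CPM or more in each library, 22 at 100 CPM or more and 5 at 1000 CPM or more. Below Cst3, Cpe, Apoe, Clu and Sparcl1 came Pla2g7, which hydrolyses platelet-activating factor (1764, 1641 and 833 CPM), Serpine2, a serine protease inhibitor (1424, 1776 and 746 CPM), and Htra1, a secreted protease (881, 975 and 667 CPM). Animal 3 was lowest for each of these. The matrix and synapse-acting proteins were a smaller group, with 0.261% ± 0.0615 of the counts. They were led by brevican (Bcan, 1004, 1111 and 632 CPM) and neuroglycan C (Cspg5, 801, 826 and 458 CPM), followed by syndecan 4 (Sdc4, 325 ± 63.0 CPM) and glypican 5 (Gpc5, 196 ± 41.3 CPM). Vcan and Lama1 were under 1 CPM in all 3 libraries.

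Genes for uptake and recycling of glutamate and GABA took 0.906%, 0.906% and 0.678% of the counts, of which Slc1a3 made 35.7%. Glul, glutamine synthetase, which turns glutamate into glutamine, was at 1277, 1299 and 1460 CPM (1345 ± 99.8). Slc6a11, a GABA transporter of astrocytes, was at 255, 220 and 133 CPM. Abat, which breaks down GABA, was at 559 ± 77.2 CPM and Glud1, glutamate dehydrogenase, at 357 ± 39.5 CPM. As examples, the membrane transporters Slc1a3, Slc1a2 and Slc6a11 were lowest in animal 3, whereas the enzymes Glul and Glud1 were highest there. Of the 12 genes of this list at 10 CPM or more in each library, 6 were highest in animal 3 and 5 lowest there. Of all genes at that level, 49.7% and 23.2% were.

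The list for potassium, sodium pumps, bicarbonate and water took 0.681%, 0.755% and 0.529% of the counts. It included the astrocyte sodium pump subunit Atp1b2 (1162, 1075 and 817 CPM) and Car2, carbonic anhydrase 2 (1141, 1160 and 1187 CPM), a cytosolic enzyme with a CV of 1.99%. Aqp4, the water channel of endfeet, was at 818, 662 and 512 CPM. The gap junction genes of astrocytes, Gja1 (connexin 43) and Gjb6 (connexin 30), were at 1547, 1438 and 952 CPM and at 817, 733 and 645 CPM, while Gjb2 was at 28.2 ± 7.07 CPM and the pannexins Panx1 and Panx2 at 4.30 ± 3.36 and 3.16 ± 1.59 CPM. Of the proteins that anchor endfeet, Mlc1 was at 1063, 1110 and 609 CPM and Hepacam, its partner, at 753, 684 and 686 CPM. Dtna (dystrobrevin), of the cytoplasmic scaffold, was at 391 ± 74.5 CPM.

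Intermediate filaments were a single-gene list in practice, since Gfap held 98.8% of its counts. Vim (vimentin) was at 102, 76.3 and 92.9 CPM, and Nes (nestin), a progenitor marker, at 1.48, 0.0535 and 3.49 CPM. The actin and tubulin list took 0.658% ± 0.0699, led by cofilin (Cfl1, 926 ± 37.6 CPM), thymosin beta 4 (Tmsb4x, 838 ± 125 CPM), Actb (776 ± 190 CPM) and profilin 2 (Pfn2, 607 ± 29.9 CPM).

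**Figure D3:**
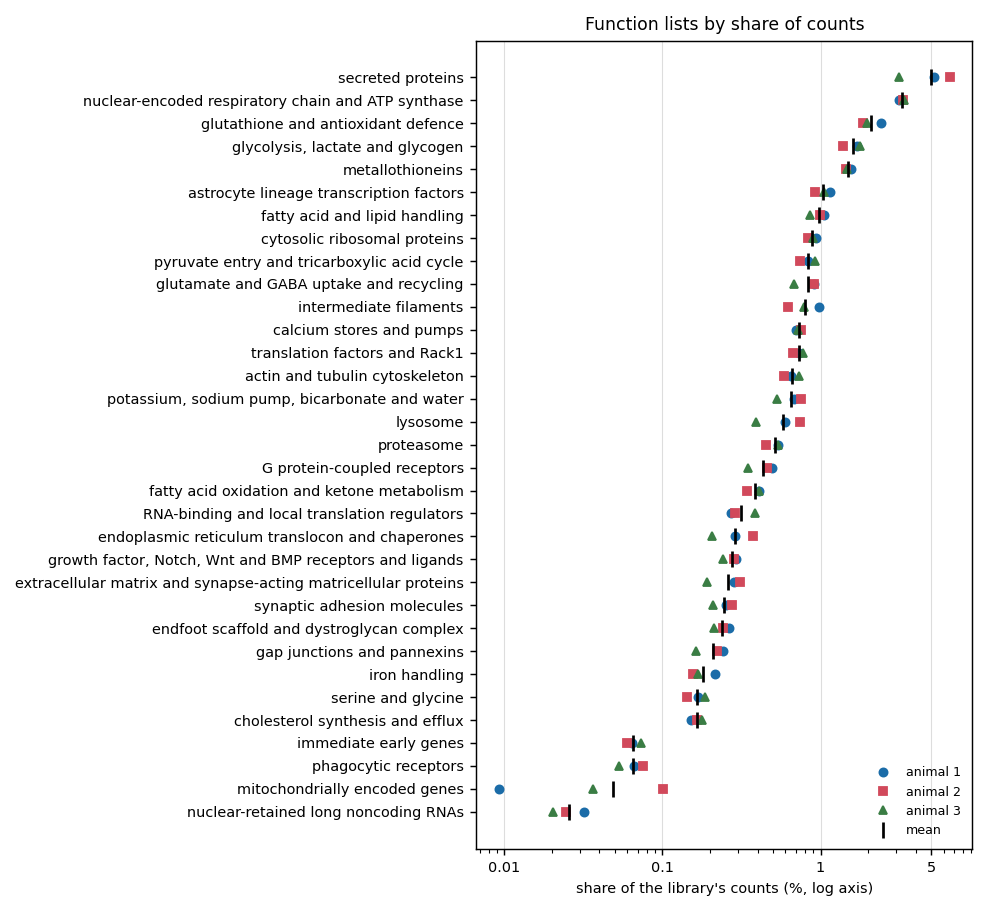
Share of each library's counts (%, log x axis) in 33 function lists, for animals 1 (circles), 2 (squares) and 3 (triangles), with the mean as a black bar. Secreted proteins lead with a mean of 4.98%, and the mitochondrially encoded genes spread most between animals, from 0.00926% to 0.101%.

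Energy metabolism was represented most by the respiratory chain. Its 81 nuclear-encoded subunits and ATP synthase genes took 3.13%, 3.34% and 3.36% of the counts and 6.43% ± 0.267 of the per-length total, slightly above the per-length 6.30% ± 2.08 of the secreted list by mean and within its spread. Of them, 69 were at 100 CPM or more in each library, with a median rank of 417, against 6774 for all genes at 1 CPM or more. Atp5b (1333 ± 202 CPM), Cox8a (1224 ± 51.8 CPM), Atp5g3 (1149 ± 32.2 CPM) and Cox4i1 (1091 ± 48.1 CPM) led. The testis form Cox8c was at 0 counts in all 3 libraries. The pyruvate and tricarboxylic acid cycle list took 0.834% ± 0.0957, with Mdh1 (malate dehydrogenase) at 771 ± 93.6 CPM and the 4 subunits of succinate dehydrogenase Sdhd, Sdhc, Sdhb and Sdha close together, at means of 558, 531, 498 and 509 CPM.

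Glycolysis, lactate and glycogen genes took 1.70%, 1.38% and 1.77% of the counts, of which Aldoc made 42.9%. Ldhb, the lactate dehydrogenase subunit better known from neurons and heart, was at 1657, 1409 and 1599 CPM (1555 ± 130). Aldoa was at 1398 ± 201 CPM, Ugp2, which makes the glucose donor for glycogen, at 857 ± 98.4 CPM, and Pygb, brain glycogen phosphorylase, at 724 ± 124 CPM. Slc16a3, a lactate exporter, was under 1 CPM in all 3 libraries. In the serine and glycine list (0.166% ± 0.0221), Psat1, Psph and Phgdh, the enzymes of serine synthesis, were at 360 ± 81.2, 213 ± 31.9 and 188 ± 41.4 CPM. Srr, which makes D-serine, was at 214 ± 36.2 CPM.

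Lipid genes divided between handling of fatty acids, with 0.971% ± 0.102 of the counts, their oxidation, with 0.387% ± 0.0365, and cholesterol synthesis and efflux, with 0.166% ± 0.0137. Below Scd2, the first of these lists held Plpp3, a lipid phosphatase (1252 ± 352 CPM), Acsbg1, an acyl-CoA synthetase (1078 ± 235 CPM), and Fads1, a desaturase of long fatty acids (1042 ± 263 CPM). Oxct1, which uses ketone bodies, and Echs1, an enzyme of beta oxidation, were at 456 ± 23.2 and 362 ± 67.1 CPM. Cholesterol synthesis was led by Hmgcs1, at 265, 318 and 562 CPM, with animal 3 highest, and Msmo1, at 327, 349 and 274 CPM, with animal 3 lowest.

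Glutathione and antioxidant genes took 2.41%, 1.84% and 1.96% of the counts. After Prdx6, Gstm1 and Gstm5, the list held Selenop, a secreted selenium carrier (1331, 1573 and 1188 CPM), and Prdx1 (1820, 1018 and 1225 CPM), followed by Gpx4, which reduces lipid peroxides (623 ± 21.1 CPM). Of its 22 genes, 14 were highest in animal 1, as were 27.6% of all genes at 10 CPM or more. Iron handling (0.180% ± 0.0317) was mostly Fth1, the ferritin heavy chain (1337 ± 287 CPM), with the light chain gene Ftl1 at 245 ± 40.9 CPM. Gstm, ferritin, Eef1a1, Gapdh and ribosomal protein genes have close copies in the genome, so their single-gene values are uncertain.

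The most abundant G protein-coupled receptors were S1pr1, a receptor for sphingosine phosphate (1818, 1687 and 1385 CPM), and Gpr37l1, a glial receptor (1783, 1540 and 1049 CPM). Ednrb, an endothelin receptor, was at 280 ± 81.1 CPM and Gabbr1, a GABA-B subunit, at 238 ± 35.3 CPM. Of 28 genes in this list, 14 were at 10 CPM or more in each library. Adra1b and Htr2a were under 1 CPM in all 3 libraries, and Ptger2 was at 0 counts. Among growth factor, Notch, Wnt and BMP receptors and ligands, Ntrk2 (TrkB, the BDNF receptor) made 49.4% of the list at 1438, 1348 and 1267 CPM. Fgfr3 was at 329 ± 58.7 CPM, Bmpr1a at 149, 156 and 132 CPM and Fgfr1 at 138 ± 6.33 CPM. This list took 0.274% of the counts and 0.0638% of the per-length total.

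Synaptic adhesion molecules took 0.245% ± 0.0339 of the counts and were led by Pcdhgc3, a gamma protocadherin that shares exons with its cluster (537 ± 63.9 CPM), then Ctnnd2 (258 ± 37.5 CPM), Ntm (253 ± 90.1 CPM) and Lsamp (247 ± 53.6 CPM). Phagocytic receptors were lower, with 0.0650% ± 0.0114. Axl was at 143 ± 42.5 CPM, Itgb5 at 129 ± 34.7 CPM, Itgb8 at 102 ± 14.7 CPM and Mertk at 81.4 ± 9.92 CPM, and Megf10, an engulfment receptor of astrocytes, was at 30.4, 45.0 and 11.3 CPM. Calcium proteins took 0.727% ± 0.0268, and included S100b (1694 ± 165 CPM), S100a1 (1100 ± 58.8 CPM) and Calm2 (598 ± 121 CPM).

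Transcription factors of the astrocyte lineage took 1.14%, 0.923% and 1.05% of the counts, and 15 of 29 were at 100 CPM or more in each library. Under Hopx came the inhibitors of differentiation Id2 (1993 ± 313 CPM), Id4 (1204 ± 64.4 CPM) and Id3 (644 ± 164 CPM), with Tsc22d4 at 960 ± 56.9 CPM, Lhx2 at 617 ± 49.7 CPM, Dbx2 at 421 ± 39.5 CPM and Sox9, a determinant of the glial fate, at 354 ± 79.0 CPM. Immediate early genes, which neural activity and tissue handling are known to raise, took 0.0655% ± 0.00680. Jund was the highest at 177 ± 21.9 CPM, and Egr1 was at 16.5, 14.2 and 43.9 CPM. Egr2, Klf4 and Atf3 were under 1 CPM in all 3 libraries.

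For the machinery of protein synthesis and breakdown, the 86 cytosolic ribosomal protein genes took 0.933%, 0.833% and 0.896% of the counts and 1.57% ± 0.107 of the per-length total. Rpl4 led them at 338 ± 42.0 CPM. Translation factors took 0.726% ± 0.0546, with Eif1 at 929 ± 33.5 CPM and Eif5a at 522 ± 14.5 CPM below Eif4g2. The proteasome list took 0.512% ± 0.0490, with Psmb1 highest at 311 ± 33.7 CPM. Lysosomal genes took 0.597%, 0.742% and 0.389%, led by Lamp1 (1014, 1105 and 583 CPM), Laptm4a (796, 774 and 414 CPM) and the protease Ctsb (724, 846 and 368 CPM). Genes of the endoplasmic reticulum translocon and its chaperones took 0.286%, 0.372% and 0.206%. Among them, Hspa5 (BiP), the main chaperone of that compartment, was at 154, 301 and 113 CPM, and Ssr3 at 376, 327 and 233 CPM. RNA-binding and local translation regulators took 0.270%, 0.288% and 0.384% and were led by Qk, the splicing and RNA transport factor quaking (757, 1179 and 1379 CPM). Igf2bp1 was at 0 counts in all 3 libraries.

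Genes of the mitochondrial genome were rare and varied by 10.9-fold between the lowest and highest library, taking 0.00926%, 0.101% and 0.0363% of the counts. The mean share was 0.0489%, and 0.0228% without animal 2. mt-Rnr2, a ribosomal RNA of the organelle, was at 25.2, 218 and 98.1 CPM, mt-Cytb at 16.3, 173 and 71.8 CPM and mt-Co1 at 9.46, 161 and 33.8 CPM. The genes mt-Atp6, mt-Atp8, mt-Co2, mt-Co3 and mt-Nd4l and the tRNA genes mt-Td, mt-Tk and mt-Ts1 were listed at 0 counts in all 3 libraries. How reads from the mitochondrial genome were treated was not given in the sources used here. Long noncoding RNAs known to stay in the nucleus took 0.0256% ± 0.00590, of which Malat1 (253, 206 and 166 CPM) made 81.2%. Neat1 was at 12.5 ± 1.13 CPM, and Xist and Kcnq1ot1 were under 1 CPM in all 3 libraries.

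The spread between the 3 libraries was larger than counting alone gives. It holds the preparation and amplification of each library, which cannot be told apart from differences between the animals. Among the 2099 genes with a mean of 100 CPM or more, the median CV over the 3 animals was 13.4%, where counting noise would give a median of 1.69%. The 8 technical replicates within an animal had a median CV of 5.99%, against 4.77% from counting. The median CV over animals was 38.2% for genes at 1 to 10 CPM, 20.7% at 10 to 100 CPM, 13.3% at 100 to 1000 CPM and 15.7% for the 89 genes above 1000 CPM, so the spread did not keep falling with depth at the top.

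The steadiest of the 2099 genes had CVs below what counting noise gives, which the lowest of so many values over 3 animals can reach. They were Cdc42se2 (211, 210 and 210 CPM), Ramp2 (184, 185 and 183 CPM), Park7 (277, 279 and 278 CPM), Gtf2h5 (173, 173 and 172 CPM), Commd6 (222, 218 and 221 CPM), Rnf5 (366, 373 and 370 CPM), Fbxo9 (105, 108 and 106 CPM) and Ufc1 (140, 137 and 139 CPM). Park7 encodes DJ-1, a protein of oxidative stress defence, and Ramp2 a partner of the adrenomedullin receptor. The 8 most variable were Ttr with a CV of 104%, Kl with 103%, 1500015O10Rik with 99.1%, Enpp2 with 94.7%, mt-Rnr2 with 85.6%, Bsg with 73.2%, Ncdn with 64.9% and Trf with 64.5%. All of these were highest in animal 2 except Ncdn, a neuronal protein gene, which was highest in animal 3 (101, 180 and 378 CPM). Enpp2 was at 752, 3815 and 904 CPM, Bsg at 425, 1262 and 367 CPM, Kl at 32.8, 220 and 48.6 CPM, 1500015O10Rik at 31.8, 222 and 58.1 CPM and Trf at 67.7, 201 and 77.0 CPM. Kl (klotho), Ttr and Enpp2 (autotaxin) are known from the choroid plexus, an epithelium that borders the ventricle next to the hippocampus.

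Beyond these genes, most members of the secreted, lysosomal and translocon lists were highest in animal 2 and lowest in animal 3. Of the 8537 genes at 10 CPM or more in every library, 22.8% were highest in animal 2 and 23.2% were lowest in animal 3. In the secreted list, 23 of the 32 genes at that level were highest in animal 2 and 23 were lowest in animal 3. Corresponding counts were 24 and 25 of 29 lysosomal genes and 20 and 19 of 24 genes of the translocon and its chaperones. Lists rich in membrane proteins varied. In the potassium and sodium pump list, 10 of 16 genes at that level were highest in animal 2 and 9 lowest in animal 3, and among phagocytic receptors 6 and 5 of 9. The counts were 10 and 11 of 19 for growth factor, Notch, Wnt and BMP receptors and ligands, 10 and 16 of 20 for synaptic adhesion molecules, and 5 and 8 of 14 for G protein-coupled receptors. Of gap junction genes 0 of 3 were highest in animal 2 and 3 lowest in animal 3, and of endfoot scaffold genes 1 and 3 of 7. These lists were not alone in this, and the mitochondrial lists did not move alike. Of 77 nuclear-encoded respiratory chain genes at that level, 41 were highest in animal 2 and 42 lowest in animal 1. Of all genes at that level, 29.6% were lowest in animal 1. Only 16 of the 77 were lowest in animal 3, near the share of all genes. Of 15 genes of the calcium list, 9 were highest in animal 2. Of 26 genes of the tricarboxylic acid cycle list, 20 were highest in animal 3 and 22 lowest in animal 2, against 49.7% and 47.2% of all genes at that level.

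All protein-coding genes at 10 CPM or more were also split by an N-terminal hydrophobic stretch. It is the feature of signal peptides and signal anchors that sends a nascent protein to the endoplasmic reticulum. Members of the lists were kept in, so the split is not separate from the lists. A stretch was counted where the mean Kyte-Doolittle hydropathy reached 2 over some window of 11 residues within residues 2 to 30. This split of the genes was chosen after the values of the lists had been seen. Of 1024 genes with the stretch, 58.7% were highest in animal 2 and 58.8% lowest in animal 3, and of 7074 genes without it 17.4% and 17.9%. The median log2 ratio of animal 3 to animal 2 was -0.38 (quartiles -0.78 and -0.03) with the stretch and 0.24 (quartiles -0.02 and 0.50) without it. Genes with the stretch took 16.6%, 21.5% and 12.8% of the counts. The ratio of animal 2 to animal 1 had medians of 0.16 and -0.10, and that of animal 3 to animal 1 of -0.18 and 0.12, so animal 1 lay between the others. The choroid plexus list was also highest in animal 2 and was lowest in animal 1, and general neuron markers took 0.140%, 0.177% and 0.260% of the counts in animals 1, 2 and 3. Their part in the shift was not tested. With TMM factors, an edgeR scaling that moved the log2 ratio of animals 3 and 2 by 0.16, the medians became -0.54 and 0.08. On that scale 64.8% of genes with the stretch were highest in animal 2 and 68.8% lowest in animal 3, against 26.6% and 29.99% of those without it. Dissection, RNA quality and the state of the animals were not tested as sources of the shift.

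**Figure D4:**
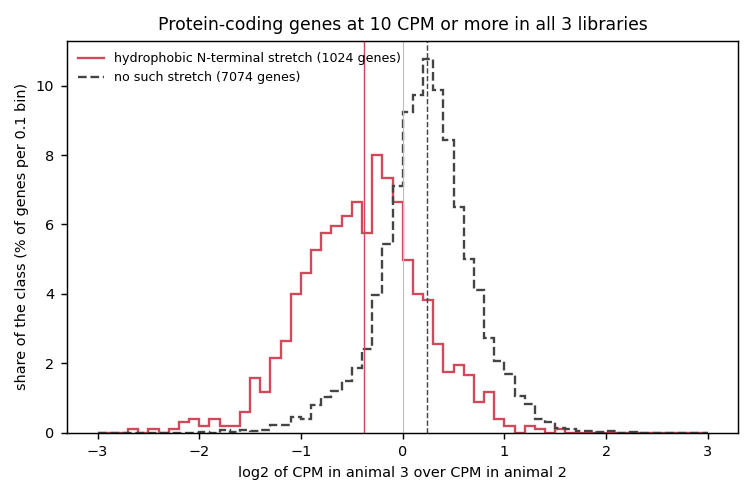
Distribution of the log2 ratio of CPM in animal 3 to CPM in animal 2 (x axis) over 1024 protein-coding genes with an N-terminal hydrophobic stretch (solid) and 7074 without it (dashed), as a share of each class per bin (%, y axis), with vertical lines at the medians of -0.38 and 0.24. The class with the stretch lies to the left of the other, and both classes extend to either side of 0.

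Each list of markers of other cells took a smaller share of the counts than the astrocyte list. The astrocyte list held 26 genes and the other lists 11 to 20, and a share depends on the size and choice of a list. By mean CPM, Ttr by itself was above Gfap, an order that held in animal 2 only. In a pulldown, less RNA per cell cannot be told apart from fewer cells of a type. The astrocyte list took 3.70%, 3.12% and 2.98% of the counts. The ependymal and choroid plexus list, at 0.851% ± 0.867, had the next highest mean, a place that rests on animal 2. In animal 1 the list of neural stem and progenitor genes was higher (0.388% against 0.239%), and without animal 2 the means of these lists were 0.356% and 0.355%. Ttr made 94.6% of the choroid plexus list. Clic6 was at 38.6, 178 and 131 CPM, Folr1 at 19.5, 125 and 23.6 CPM, Kcne2 at 20.1, 94.1 and 31.1 CPM and Prlr at 10.99, 99.2 and 15.7 CPM, each highest in animal 2 and lowest in animal 1. Of the 10 genes of this list at 10 CPM or more, 9 were highest in animal 2, against 22.8% of all genes at that level. The part of such cells in the values of Ttr, Enpp2, Kl and the secreted list was not tested.

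The list of neural stem and progenitor genes took 0.343% ± 0.0395, mostly Hopx and Thrsp (1287 ± 152 CPM), while Dcx, Eomes, Top2a and Tfap2c were under 1 CPM in all 3 libraries. The oligodendrocyte list took 0.184%, 0.505% and 0.213%, of which Enpp2 made 60.7%. Of its 10 genes at 10 CPM or more, 7 were highest in animal 2, against 22.8% of all genes at that level, and 7 were lowest in animal 1, against 29.6%. Among its myelin genes, Mbp was at 101, 154 and 145 CPM and Cnp at 332, 247 and 402 CPM. Olig1, at 218 ± 35.1 CPM, made 81.8% of the precursor list, in which Pdgfra was at 6.54 ± 4.21 CPM and Neu4 and Pcdh15 were under 1 CPM.

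General neuron markers took 0.140%, 0.177% and 0.260% of the counts, lowest in animal 1 and highest in animal 3. Of 16 genes at 10 CPM or more, 14 were highest in animal 3, as were 49.7% of all genes at that level. Snap25, a synaptic vesicle fusion protein, was at 363, 491 and 668 CPM, Map2 at 340, 293 and 482 CPM and Nrgn at 117, 215 and 174 CPM. Markers of hippocampal excitatory neurons took 0.0344% ± 0.00568, with Gria2 at 85.6 ± 16.4 CPM and Slc17a7 at 63.0 ± 13.9 CPM, and those of inhibitory neurons 0.0126% ± 0.00340, with Gad1 at 29.5 ± 8.97 CPM and Slc32a1 under 1 CPM. In the RNA-binding list, 19 of 21 genes at 10 CPM or more were highest in animal 3, and the part of neuronal RNA in that was not tested.

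Vascular and immune markers were low. Without Bsg, which is made by many cells and held 95.1% of the endothelial list, the highest of its genes were Ocln (7.98, 28.3 and 0.513 CPM) and Itm2a (9.55 ± 4.41 CPM), and Cdh5, Tek and Kdr were under 1 CPM. Microglia and macrophage markers took 0.00886% ± 0.00260. The highest gene of that list, not reported here, held 35.6% of it, and below it P2ry12 was at 11.3 ± 8.14 CPM and Csf1r at 8.79 ± 1.74 CPM. Pericyte, smooth muscle and fibroblast markers took 0.00901% ± 0.000634, led by Myl9 at 36.7 ± 12.1 CPM, and Kcnj8 and Abcc9 were at 0 counts in all 3 libraries. In the blood and B lineage list (0.00584% ± 0.00135), Igkc was at 22.1 ± 3.08 CPM, Jchain at 14.9 ± 4.47 CPM and Hbb-bs at 7.89 ± 2.27 CPM.

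**Figure D5:**
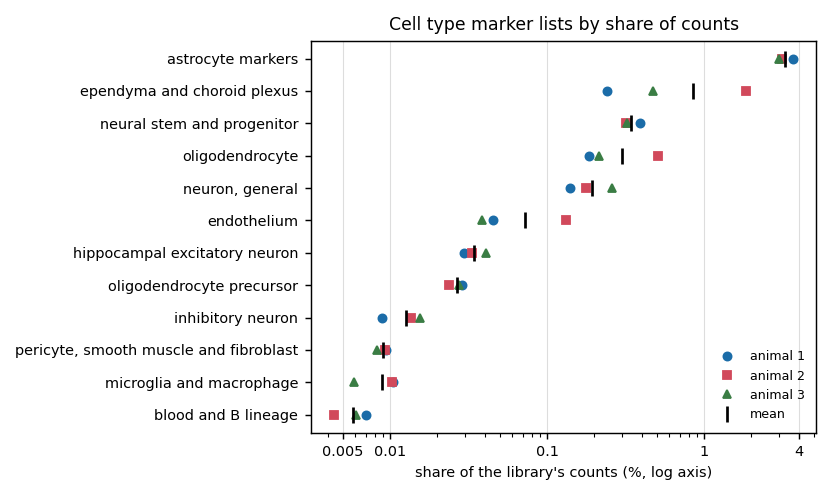
Share of each library's counts (%, log x axis) in 12 lists of cell type markers for animals 1 (circles), 2 (squares) and 3 (triangles), with the mean as a black bar. Astrocyte markers lead at 2.98% to 3.70%, and the ependymal and choroid plexus list spreads most, from 0.239% to 1.84%.

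Abundant transcripts encoded shorter proteins. The 100 most abundant protein-coding genes by CPM had a median coding length of 789 bases and a median exonic length of 3204 bases, against 1347 and 4514 bases for all 12042 protein-coding genes at 1 CPM or more in each library. The next 900 genes had medians of 792 and 3585 bases, so a short coding length was not particular to the first 100. GC content of the transcripts was alike in the first 100 and in all 12042, with medians of 50.3% and 50.5%. An N-terminal hydrophobic stretch was found in 20 of the 99 most abundant genes with a readable coding sequence (20.2%), in 8 of the first 29 (27.6%) and in 14.5% of all those at 1 CPM or more. These shares were not tested and rest on small numbers of genes at the top. The motif TATAAA on either strand lay in 16 of 109 RefSeq promoter windows of the 100 most abundant genes (14.7%), in 8 of 37 of the first 30 (21.6%) and in 6.84% of the 12278 windows of all protein-coding genes at 1 CPM or more, while 13.6% of all 32851 windows held it. RefSeq gives some genes more than 1 start, and windows of the same gene share sequence.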

How the data were processed

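Whole-astrocyte polysomal RNA of 3 mice was amplified with a SMART-Seq kit and sequenced after Nextera XT library preparation, per the labels' protocols. The authors deposited 1 file per technical replicate, with raw read counts per Ensembl gene and no scaling. Per the submitters' processing notes, bcl2fastq 2.18.0.12, Trim Galore 0.4.1, STAR 2.5.2b, SAMtools, HTSeq 0.5.3 and mm10 were used. The annotation release, strand setting and counting mode were not given in the sources used here. Lysates were pre-cleared before the pulldown, per the labels' protocols.

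Counts of the 8 technical replicates were summed per animal and divided by the library total (CPM). Of the 47643 IDs, 47224 (99.12%) matched GENCODE M21, which gave symbols, positions, exonic lengths and coding sequences. A per-length level is the count per kilobase of exonic bases, scaled to a sum of 1000000. No test was made. Spread is the SD or CV over 3 animals, which measures the spread between these libraries. The labels number the animals, and the technical replicates were not used as n. The calculation of CVs and ratios was tested on simulated data. Software was Python 3, numpy and pandas, with edgeR 4.0.16 for the TMM factors.

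Named genes were the 7 markers, the 30 highest by CPM, the 15 protein-coding genes highest per length, up to 4 per function list and 3 per cell type list, list members at 0, the 8 highest and 8 lowest CVs among genes with a mean of 100 CPM or more, and the 5 highest long noncoding RNAs. A few of these genes are not reported here. Some other list members are given as examples, chosen after their values were seen. Dbi was taken out of the cytoskeleton list and a repeated older symbol of Plpp3 dropped after the values were seen. The members and lists were chosen with earlier results of these data known. Alternatives covered the denominator, TMM scaling, technical replicates 1 to 4 or 5 to 8, thinning to the smallest total, leaving out each animal, leaving out the 10 most abundant genes, a filter of 10 counts, coding length in place of exonic length and list overlap.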

Additional observations from a re-analysis of the deposited data

How the results depend on the processing

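Leaving out 1 of 3 animals cannot move a mean beyond the SD between animals, so those values are judged by fold only. Leaving the 10 most abundant genes out of the denominator changed what the concentration measures count, and the share of the next 10 genes was 3.96% and that of the next 100 was 17.3%. Leaving out each animal in turn gave 7.63% to 9.55% for the 10 most abundant genes, 22.1% to 25.0% for the 100 most abundant, 707.5 to 813 genes for 50% of the counts, 13883 to 13935 genes at 1 CPM or more, 85 to 89 shared genes among the 100 most abundant (79 with all 3 libraries) and a median CV of 10.1% to 13.5%. Among 45 list shares, 4 changed by more than 1.5-fold without animal 2: ependyma and choroid plexus (0.355%), mitochondrially encoded genes (0.0228%), endothelium (0.0419%) and oligodendrocyte (0.199%). Without animal 2, Enpp2 had a mean of 828 CPM, Bsg 395.5, Trf 72.4, Kl 40.7, 1500015O10Rik 44.9, mt-Rnr2 61.6, mt-Cytb 44.1, mt-Co1 21.7, mt-Nd1 31.8, Kcne2 25.6, Folr1 21.5, Prlr 13.4 and Ocln 4.25 CPM. Without animal 3, Ncdn was at 140.6, Egr1 at 15.3, Panx1 at 2.37 and Nes at 0.766 CPM, and without animal 1 P2ry12 was at 6.76 and Snhg11 at 9.85 CPM. Metallothioneins took 1.58% in technical replicates 1 to 4 and 1.40% in 5 to 8, a change above their small SD between animals. The difference in median log2 ratio between the N-terminal classes, chosen after the values were seen, was -0.62, and -0.61 in technical replicates 1 to 4 and in 5 to 8. Scalings shift both classes alike, so they say nothing of its stability. Coding length in place of exonic length moved 157 of 232 per-length ranks beyond their SD between animals and 118 by more than 1.5-fold, up to 10.5-fold for Eif4g2 (from 231 to 22). Mt1 then ranked 1 and Cst3 2, Tspan7 went from 26 to 9 and Sparcl1 from 30 to 149. Per length in place of CPM, 24 of 33 function list shares moved beyond their SD, 16 of them by more than 1.5-fold. No paired analysis was possible because a single group was described and no test was made. With 3 animals, the SDs themselves are imprecise, and genes under 1 CPM rest on few counts, several of them changing by more than 1.5-fold without 1 animal.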

Other observations

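Tsc22d3 was at 852, 1295 and 1621 CPM, lowest in animal 1 and highest in animal 3. Rida, an enzyme that clears reactive enamines, was at 1910, 1286 and 984 CPM and ranked 34, 66 and 80. Both genes were chosen after their values were seen, and no test was made of them.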
